A study of Rattus norvegicus with 12 samples.

Results

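The cyclin-dependent kinase (CDK) inhibitors and 4 target genes of p53 were followed in the lumbar mammary gland of young female rats whose mothers had been protein restricted in pregnancy. The 10 genes were chosen by name: the inhibitors Cdkn1a, Cdkn1b, Cdkn1c, Cdkn2a, Cdkn2b and Cdkn2c, and Mdm2, Ccng1, Plk2 and Btg2. They are 10 of the 26456 gene names on the array, represented by 14 of its 30367 gene probes, and every probe was kept apart. Those names include probe and transcript identifiers where no symbol was given. LP rats were offspring of Wistar dams fed a diet with 8.8% protein during pregnancy, and NP rats were offspring of dams fed 17.0% protein. All litters were reduced to 6 females at birth, and the dams and later the offspring of both groups had standard chow from then on, so that the diets differed before birth only. The gland was taken, with visible lymph nodes removed, on day 21 and day 28 after birth, the start and the end of the ductal morphogenesis of puberty, and 3 rats were measured per diet and day on 1 array each.

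CDK inhibitors bind CDKs or cyclin-CDK complexes and hold cells in the first gap phase of the cell cycle. The Cip/Kip proteins p21 (Cdkn1a), p27 (Cdkn1b) and p57 (Cdkn1c) act on several CDKs, whereas the INK4 proteins p16 (Cdkn2a), p15 (Cdkn2b) and p18 (Cdkn2c) act on Cdk4 and Cdk6, the kinases that start the phosphorylation of the retinoblastoma protein. Cdkn1a is the classical target gene of the tumor suppressor p53, and it also responds to glucocorticoids and growth factors without p53. Mdm2, Ccng1, Plk2 and Btg2 are other p53 targets, of which Mdm2 encodes the ubiquitin ligase that removes p53 itself.

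Levels are log2 signals relative to the 75th percentile of the gene spots of the same array, so that a value of 0 is a signal at that percentile. On this scale levels of different probes cannot be set against each other. The 75th percentile lay between 1451 and 2369.6 intensity units, 74.8 to 79.6% of gene spots were well above background, and 0 gene spots were saturated. The array LP day 21 6a stood apart from the other 11. It correlated with them at a median of 0.96, where the medians of the others were 0.974 to 0.989, and its mean level of 7 lymphocyte markers was -5.50, against -0.27 to 0.98 elsewhere. Differences on day 21 that moved by more than 0.1 without it are therefore given with and without it. Each day had a slide of its own, and day and slide therefore cannot be told apart. A lower level in RNA of whole gland can come from fewer cells of a type or from less RNA per cell, which cannot be told apart either. Markers of the tissue were present in all groups: the mean level of 6 adipocyte markers was 2.43 to 2.81, that of 7 luminal epithelium markers -0.05 to 2.10, and that of 5 fibroblast markers 3.89 to 4.63. Markers of neighbouring tissue varied more: the mean level of 8 skeletal muscle markers was -5.05 to 2.92 and that of 7 liver markers -5.63 to -1.93.

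Of the 14 probes, 13 were well above background on all 12 arrays. The exception was the Cdkn2b probe A_44_P313507, which was above background on 0 of 12 arrays and was not tested. The 13 probes were tested in a limma fit across 23209 probes, and none had an adjusted p below 0.05 for diet or for day. The shares of all tested probes that passed were 0% for LP against NP on day 21 and 0% on day 28. They were 0.25% for day 28 against day 21 in NP rats, 0% in LP rats and 1.81% over both diets, and 0% for the change of the diet difference between the days. Before adjustment, 0 of 13 member probes had a p below 0.05 for diet on day 21, beside 4.36% of all probes, and 1 of 13 had one on day 28, beside 8.07%. Between the days, 3 of 13 had one in NP rats (12.8% of all probes), 2 of 13 in LP rats (10.1%) and 4 of 13 over both diets (19.2%), and 1 of 13 had one for the change of the diet difference (2.26%). The rats of the groups compared did not overlap for 1 of 13 probes between the diets on day 21 (11.5% of all probes) and on day 28 (16.8%). Between the days they did not overlap for 2 of 13 in NP rats (18.7%), 2 of 13 in LP rats (18.7%) and 0 of 13 over both diets (3.73%). The median difference between LP and NP rats over the 13 probes was 0.04 on day 21 and 0.03 on day 28, against 0.01 and -0.05 over all tested probes. The labels give the 3 animals of a group a number each and no litter, so that the p values measure the spread between these animals only.

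**Figure D1:**
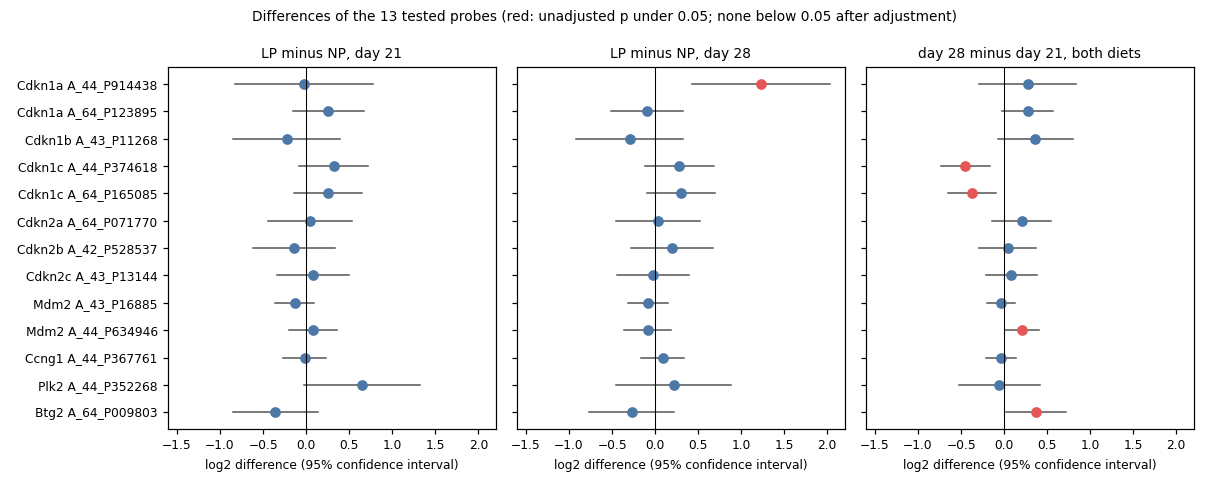
Log2 difference (horizontal axis) of each tested probe, with the 95% confidence interval from limma, for LP minus NP on day 21, LP minus NP on day 28 and day 28 minus day 21 over both diets. Red points have an unadjusted p below 0.05 and no probe had an adjusted p below 0.05; the Cdkn1a probe A_44_P914438 on day 28 is the only diet difference whose interval leaves out 0.

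Cdkn1a, whose protein p21 stops the cycle after DNA damage, gave the largest diet difference of the set, on 1 of its 2 probes and on 1 of the 2 days. Probe A_44_P914438 lies at chr20:7386596-7386655 of rn4 (base 1689 of the transcript) and has 1 spot per array. Probe A_64_P123895 lies at chr20:7385536-7385595 (base 641) and has 2 spots. The probes are 60 bases long, and 30 bases of each are printed below because the probes, which target the same transcript, did not give the same result.

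Cdkn1a A_44_P914438, bases 1 to 30: ccctgtttctgtaacaccctgagctggact
Cdkn1a A_64_P123895, bases 23 to 52: actctgcctgCCCCCTCCCagcctccaaac

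The capitals mark a run of pyrimidines, CCCCCTCCC, that is taken up again further on.

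On day 28, A_44_P914438 measured -0.69, 0.02 and -0.56 in the NP rats and 0.48, 0.92 and 1.06 in the LP rats. Every LP rat lay above every NP rat. The LP mean was higher by 1.23 (SE 0.36, 95% confidence interval 0.43 to 2.03), a 2.35-fold difference, with an adjusted p of 0.581 by limma. On the same arrays A_64_P123895 measured 2.65, 3.47 and 3.05 in the NP rats and 2.97, 2.94 and 2.96 in the LP rats. Here the LP rats lay within the range of the NP rats, and the difference was -0.10 (SE 0.19, interval -0.51 to 0.32). Taken within each array, the first probe minus the second was -3.61 to -3.33 in the NP rats and -2.49 to -1.90 in the LP rats. This gap between the probes differed between the diets by 1.32, with p = 0.1 in an exact two-sided permutation test, the smallest value that 3 against 3 arrays allow.

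On day 21 neither probe separated the diets. A_44_P914438 measured -0.35, 0.61 and -0.43 in the NP rats and -0.72, 0.02 and 0.45 in the LP rats, a difference of -0.02 (SE 0.36). A_64_P123895 measured 2.75, 2.63 and 2.44 in the NP rats and 2.67, 2.93 and 2.98 in the LP rats, a difference of 0.26 (SE 0.19). The gap between the probes differed by -0.28 between the diets (exact p = 0.6). From day 21 to day 28 the diet difference of A_44_P914438 moved by 1.25 (SE 0.51, interval 0.13 to 2.38), which is the 1 member value of this kind with an unadjusted p below 0.05 and has an adjusted p of 0.9999. That of A_64_P123895 moved by -0.35 (SE 0.26, interval -0.94 to 0.23).

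The 2 probes also gave different accounts of the days. In LP rats A_44_P914438 was higher on day 28 by 0.90 (SE 0.36, interval 0.10 to 1.70, adjusted p = 0.449) with no overlap between the days, while A_64_P123895 differed by 0.10 (SE 0.19). The first of these differences was 0.58 without LP day 21 4a. In NP rats A_64_P123895 was higher on day 28 by 0.45 (SE 0.19, interval 0.03 to 0.86, adjusted p = 0.355), while A_44_P914438 differed by -0.35 (SE 0.36). Both NP values depended on single arrays. That of A_64_P123895 was 0.24 without NP day 28 5f, and that of A_44_P914438 was -0.02 without NP day 21 5a and -0.57 without NP day 28 5f. Over the 12 arrays the levels of the 2 probes had a Pearson correlation of 0.30 (Spearman 0.27). Within groups A_44_P914438 varied with an SD of 0.48, larger than 82.8% of tested probes, and A_64_P123895 with an SD of 0.23, close to the median probe.

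The position of an array on its slide moves with diet. All NP arrays and the LP arrays 4a and 4f were in the first row, and the other 4 LP arrays were in the second. With the row as a covariate the day 28 difference of A_44_P914438 was 0.74 (adjusted p = 0.946). Within the first row on day 28, the LP array 4f measured 0.48 against -0.69 to 0.02 on the NP arrays, with 1 LP rat and no test. The part of the row in the difference was not tested further.

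**Figure D2:**
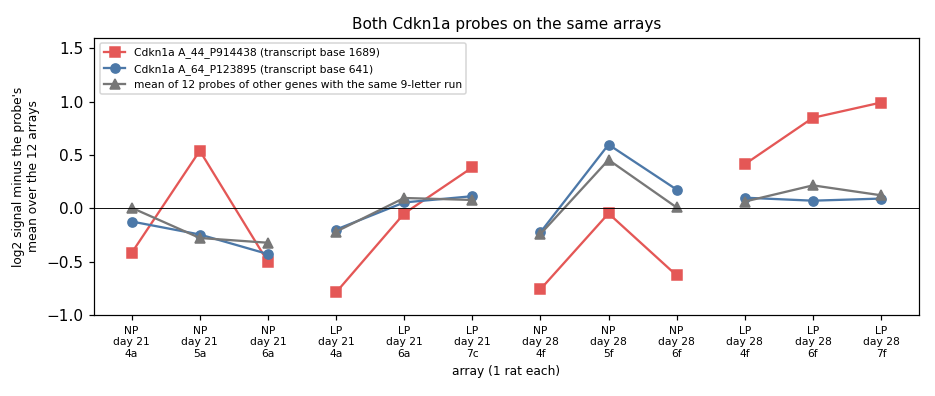
Level of both Cdkn1a probes on each of the 12 arrays, as log2 signal minus the probe's own mean over all arrays (vertical axis), with the mean of 12 other probes, most of them without a gene symbol, that hold the same 9-letter run as A_64_P123895. The LP arrays of day 28 are at 0.41 to 0.99 for A_44_P914438 and at 0.07 to 0.10 for A_64_P123895, and the gray and blue lines run close together.

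The genes whose levels ran most like those of each Cdkn1a probe were different for the 2 probes. Among 13868 probes with a gene symbol and a signal above background on all 12 arrays, the highest Pearson correlations with A_44_P914438 included those of Tsc22d3 (0.89), Il1rl1 (0.81), Nat5 (0.80) and Ell2 (0.78). Tsc22d3 encodes GILZ, a protein induced by glucocorticoids. Its correlation was 0.79 without the 2 arrays farthest from the median of the Cdkn1a probe (LP day 28 6f and 7f), and 0.86 for deviations from the group means. The level of Tsc22d3 on day 28 was 1.24, 1.47 and 1.30 in the NP rats and 1.54, 1.92 and 1.87 in the LP rats, which did not overlap (difference 0.44, SE 0.16, adjusted p = 0.581). These correlations describe 12 arrays and were picked as the highest of many. Tsc22d3 was picked for following A_44_P914438, which separates the diets on day 28, so its own separation is not independent of that probe. Of all tested probes, 16.8% had no overlap between the diets on day 28.

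For A_64_P123895 the highest correlations included those of Ptms (0.97), Otx1 (0.95), Agps (0.94) and Mixl1 (0.93). The probe of Ptms, which encodes parathymosin, shares letters with the Cdkn1a probe, again in capitals in the 30 bases shown.

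Ptms A_64_P083054, bases 5 to 34: cccgaagctgCCCCCTCCCctttttgtata

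The run CCCCCTCCC was looked for on the probe strand after these values had been seen. It is held by 13 of the 30367 probes (0.0428%), 1 of them the Cdkn1a probe, and all 13 were above background on all 12 arrays. Among the other 12, Mmp15, Uqcr11, Ptms and Rbp2 carry a gene symbol, and the rest only a probe or transcript identifier. The 12, which include the Ptms probe picked above for its correlation, had a median correlation with A_64_P123895 of 0.85 (0.34 to 0.97). Of the 12, 11 (91.7%) were above 0.5, against 13% of all probes above background throughout. With A_44_P914438, which lacks the run, their median correlation was 0.38, against -0.03 over all probes above background throughout. Above 0.5 was 1 of the 12 (8.33%), against 3.43% of those probes. The shorter run CCCTCCC, which includes every probe with the longer one, is in 133 probes (0.438%). The 125 of them that are not probes of the member genes and are above background on all arrays had a median correlation with A_64_P123895 of 0.61, and 85 were above 0.5.

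The mean level of the 12 probes with the longer run followed A_64_P123895 across arrays (Pearson 0.93, Spearman 0.78, and 0.86 without the 2 arrays farthest from its median). With A_44_P914438 that mean had a lower Pearson correlation of 0.44 (Spearman 0.53). That mean had a Pearson correlation of -0.84 (Spearman -0.77) with the log2 75th percentile of the array, which is subtracted from every level. NP day 28 5f had the lowest 75th percentile of all arrays, 1451, and the most spots marked as outliers, 766, and both the 12 probes (0.46 above their mean) and A_64_P123895 (0.60 above its mean) were highest there. From day 21 to day 28 in NP rats, where A_64_P123895 was 0.45 higher, the 12 probes were higher by a median of 0.24, against 0.03 for all tested probes. In LP rats the 12 probes were higher on day 28 by a median of 0.17 and A_64_P123895 by 0.10. For LP minus NP the median and A_64_P123895 were at 0.12 and 0.26 on day 21, and at 0.04 and -0.10 on day 28. The part of these letters, or of the 75th percentile, in the signal of the Cdkn1a probe was not tested.

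Cdkn1b, the gene of p27, a brake on the cycle in resting cells, is read by A_43_P11268 at chr4:171846350-171846409 with 10 spots per array. It measured 0.42, 0.68 and 0.39 in the NP rats of day 21 and 0.34, -0.22 and 0.69 in the LP rats, and 1.45, 0.39 and 0.84 in the NP rats of day 28 and 0.43, 0.75 and 0.61 in the LP rats. The 10 spots of an array differed by an SD of 0.03 to 0.12, so that the spread between rats was far above that between spots. LP minus NP was -0.23 (SE 0.28) on day 21 and -0.29 (SE 0.28) on day 28, and the groups overlapped on both days. Each of these differences came from 1 array: the first was 0.02 without LP day 21 6a, and the second was -0.02 without NP day 28 4f. The highest value, 1.45, was on the array NP day 28 4f, where the mean of 11 proliferation markers was lowest (-1.80, against -0.55 to 0.03 on the other 11 arrays). The lowest, -0.22, was on LP day 21 6a.

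Cdkn1c encodes p57, a maternally expressed, imprinted inhibitor that restrains growth of the fetus. Both of its probes were lower on day 28 than on day 21. A_44_P374618 lies at chr1:203836064-203836123 and A_64_P165085 at chr1:203835291-203835350. A_44_P374618 measured 0.35, 0.10 and 0.13 in the NP rats of day 21 and -0.14, -0.61 and 0.04 in those of day 28. In the LP rats it measured 0.28, 0.63 and 0.64 on day 21 and -0.15, 0.22 and 0.07 on day 28. Within each diet every rat of day 28 lay below every rat of day 21.

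The difference between the days of A_44_P374618 over both diets was -0.45 (SE 0.13, interval -0.73 to -0.17, adjusted p = 0.103). An exact two-sided permutation of the days within each diet gave p = 0.005, the smallest value that this design allows. For A_64_P165085 the difference was -0.37 (SE 0.13, interval -0.65 to -0.09, adjusted p = 0.153, exact permutation p = 0.03). It measured 1.30 to 1.63 in NP rats and 1.42 to 1.91 in LP rats on day 21, and 0.79 to 1.33 and 1.24 to 1.49 on day 28. Both probes are among the 4 with an unadjusted p below 0.05 between the days.

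The 2 Cdkn1c probes ran together, with a correlation of 0.98 over the 12 arrays, in contrast to those of Cdkn1a, and the gap between them differed between the diets by 0.06 on day 21 and -0.02 on day 28. The difference between the days of A_44_P374618 was -0.43 in NP rats (SE 0.18, adjusted p = 0.356) and -0.47 in LP rats (SE 0.18, adjusted p = 0.432). The former was -0.25 without NP day 28 5f. The change of the diet difference between the days was -0.04 (interval -0.60 to 0.53). Without any single array the difference between the days over both diets stayed between -0.52 and -0.36 for this probe and between -0.45 and -0.30 for A_64_P165085. LP was above NP by 0.32 and 0.26 on day 21 and by 0.28 and 0.30 on day 28 on the 2 probes, with all 4 intervals including 0, and the day 28 values were 0.10 and 0.15 without NP day 28 5f. The skeletal muscle markers were also lower on day 28 over both diets, in 8 of 8 genes by a median of -1.46, with 0 of 8 at an unadjusted p below 0.05, and by a median of -0.54 without LP day 21 6a. Their part in the Cdkn1c difference was not tested.

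**Figure D3:**
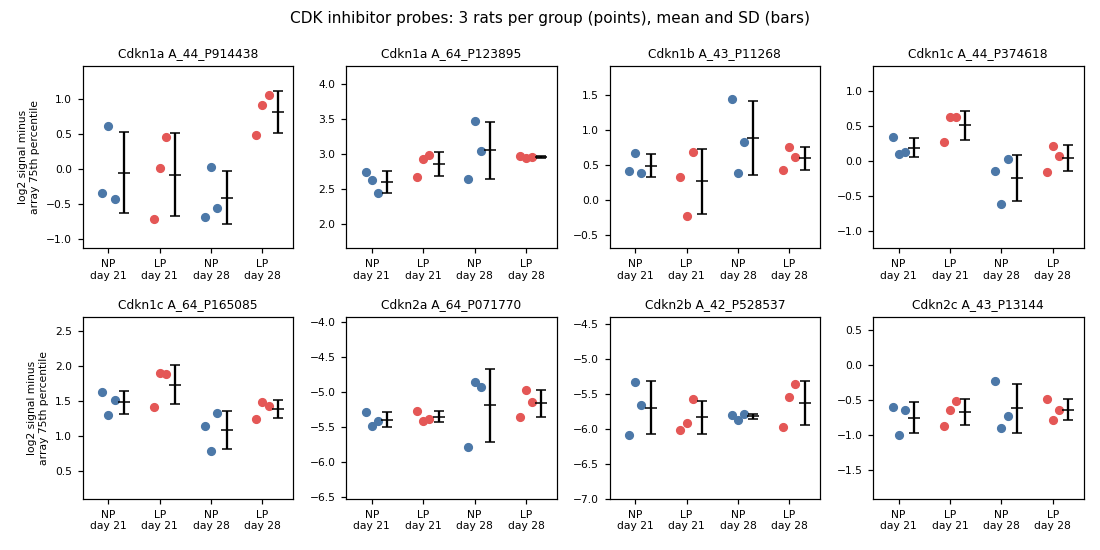
Level of each tested CDK inhibitor probe (log2 signal minus the 75th percentile of the array) in the 4 groups, with 1 point per rat and bars for the mean and SD of 3 rats; each panel has its own range. Both Cdkn1c probes are lower on day 28 in both diets, and only A_44_P914438 of Cdkn1a has all LP rats above all NP rats on day 28.

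For the INK4 genes the groups overlapped in every comparison. The Cdkn2a probe (A_64_P071770, chr5:108910777-108910836) reads a gene whose locus also encodes p19ARF, which stabilizes p53. It measured -5.49 to -5.27 on day 21 over both diets. On day 28 it measured -5.79, -4.85 and -4.93 in the NP rats and -5.36, -4.97 and -5.15 in the LP rats. LP minus NP was 0.04 (SE 0.22) on day 21 and 0.03 (SE 0.22) on day 28.

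Cdkn2b, next to Cdkn2a on the chromosome, has the probes A_42_P528537 (chr5:108940426-108940485, 10 spots) and A_44_P313507 (chr5:108941425-108941484, 2 spots). A_42_P528537 measured -6.10 to -5.33 over all 12 arrays, and its spots differed by an SD of 0.13 to 0.39 within an array, with 5 outlier spots left out in all. A_44_P313507 was read at -8.71 to -7.09, not well above background, so that only 1 of the 2 probes gave a level. LP minus NP for A_42_P528537 was -0.14 (SE 0.21) on day 21 and 0.19 (SE 0.21) on day 28.

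Cdkn2c (A_43_P13144, chr5:131013102-131013161) measured -1.01 to -0.52 on day 21 and -0.91 to -0.24 on day 28. Its highest value was on NP day 28 4f, as for Cdkn1b. LP minus NP was 0.08 (SE 0.19) on day 21 and -0.02 (SE 0.19) on day 28.

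Among the p53 targets, Mdm2 was steady at one probe and slightly higher on day 28 at the other. A_43_P16885 covers 335 bases of the genome at chr7:57005501-57005835 with its 60 letters, so that it crosses a splice junction, and it measured -3.45 to -3.07 over all 12 arrays. Its within-group SD of 0.10 was larger than that of 9.38% of tested probes only. The other probe, A_44_P634946 (chr7:56996880-56996939), measured -0.55, -0.89 and -0.73 in the NP rats of day 21 and -0.35, -0.50 and -0.46 in those of day 28, without overlap. In LP rats it measured -0.82, -0.60 and -0.51 on day 21 and -0.68, -0.50 and -0.40 on day 28, which overlap.

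Over both diets A_44_P634946 was higher on day 28 by 0.20 (SE 0.09, adjusted p = 0.244, exact permutation p = 0.04) and A_43_P16885 differed by -0.04 (SE 0.07). In NP rats alone the difference of A_44_P634946 was 0.29 (SE 0.12, adjusted p = 0.375). The 2 probes had a correlation of 0.15 over the arrays, so that at Mdm2, as at Cdkn1a, they did not follow each other. For diet, LP minus NP lay between -0.13 and 0.08 over both probes and days, with every interval including 0.

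Ccng1 encodes cyclin G1, a p53-induced partner of Mdm2 and protein phosphatase 2A. Its probe (A_44_P367761, chr10:25778638-25778912) measured 0.08 to 0.46 over all 12 arrays, with LP minus NP of -0.02 (interval -0.26 to 0.23) on day 21 and 0.09 (interval -0.16 to 0.34) on day 28. These were among the narrowest intervals of the set.

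Plk2 encodes a polo-like kinase that is induced by p53 and by mitogens. Its probe (A_44_P352268, chr2:41805560-41805752) measured -1.28, -0.97 and -1.61 in the NP rats of day 21 and -0.82, -0.00 and -1.09 in the LP rats. The difference was 0.65 (SE 0.30, interval -0.02 to 1.32, adjusted p = 0.861), the largest of the set on that day. It rested in part on LP day 21 6a, which held the highest value, and was 0.33 without it. On day 28 Plk2 measured -1.57, -1.10 and -0.70 in the NP rats and -1.08, -0.78 and -0.87 in the LP rats, a difference of 0.22 (SE 0.30) that was -0.00797 without NP day 28 4f.

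Btg2 encodes an antiproliferative protein that responds to p53 and to growth stimuli. Its probe (A_64_P009803, chr13:47027022-47027081) measured 1.80, 1.65 and 1.54 in the NP rats of day 21 and 1.43, 1.06 and 1.43 in the LP rats. All LP rats lay below all NP rats. The difference was -0.36 (SE 0.22, adjusted p = 0.861), -0.24 without LP day 21 6a and -0.10 with the array row as a covariate. On day 28 it measured 2.35, 1.92 and 1.71 in the NP rats and 2.11, 1.75 and 1.30 in the LP rats, which overlap (difference -0.27, SE 0.22, and -0.06 without LP day 28 7f). Over both diets Btg2 was higher on day 28 by 0.37 (SE 0.16, adjusted p = 0.235, exact permutation p = 0.05).

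**Figure D4:**
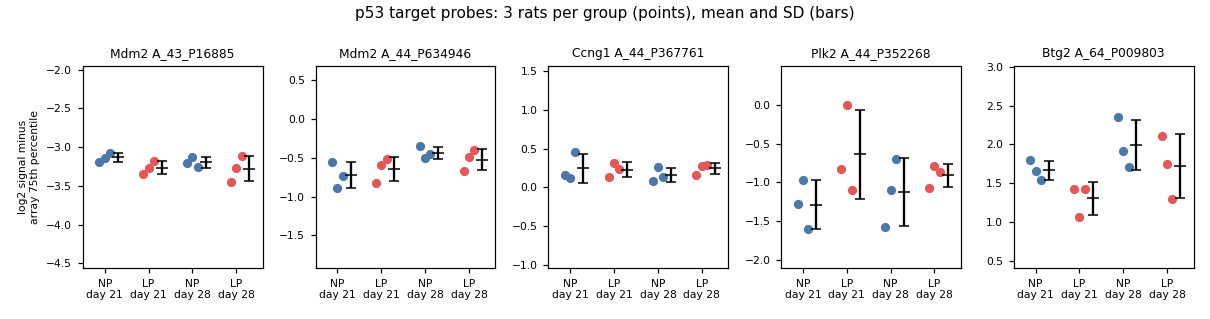
Level of the Mdm2, Ccng1, Plk2 and Btg2 probes (log2 signal minus the 75th percentile of the array) in the 4 groups, with 1 point per rat and bars for the mean and SD of 3 rats; each panel has its own range of at least 2.6 log2 units. Mdm2 and Ccng1 vary little, the highest Plk2 value is the LP day 21 array 6a, and all LP rats of day 21 are below the NP rats for Btg2.

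The members were also set beside the mean level of 5 gene lists over the 12 arrays (proliferation markers, luminal epithelium markers, lymphocyte markers, immediate-early genes and glucocorticoid target genes), 65 relations in all. Of these, 2 had an adjusted permutation p below 0.05 for the Pearson correlation. Plk2 followed the 7 luminal epithelium markers, with r = 0.87 (permutation p = 0.00034, adjusted p = 0.0221) and rho = 0.76 (permutation p = 0.00626, adjusted p = 0.136). Its r was 0.86 without the 2 arrays farthest from the median of the markers, 0.78 without LP day 21 6a, 0.90 within day 21 and 0.79 within day 28. Cdkn2b A_42_P528537 followed the mean of the 9 glucocorticoid target genes, with r = 0.84 (permutation p = 0.00081, adjusted p = 0.0263) and rho = 0.83 (permutation p = 0.00155, adjusted p = 0.101). Its r was 0.82 without the 2 farthest arrays, 0.85 within day 21 and 0.84 within day 28. Both relations missed the threshold in the rank correlation after adjustment. In the mean of the glucocorticoid target genes, genes of wide range weigh most. Zbtb16 ran from -5.53 to -2.03 over the arrays, against 1.23 to 1.92 for Tsc22d3. The part of single genes in the Cdkn2b relation was not tested.

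**Figure D5:**
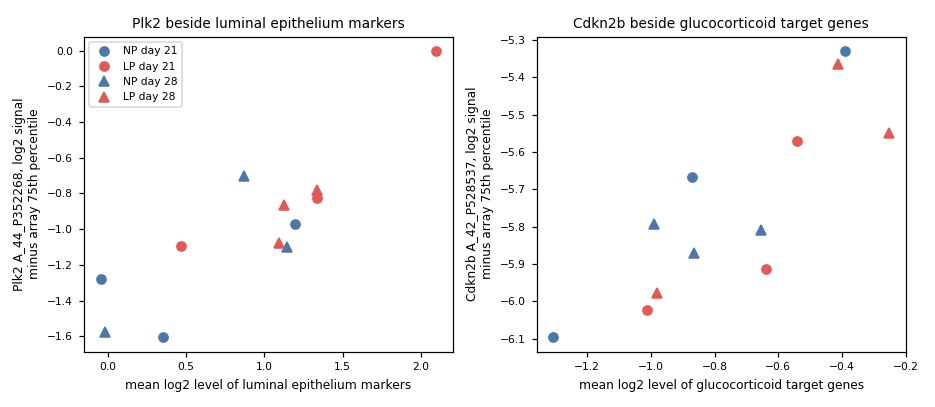
Level of the Plk2 probe against the mean log2 level of 7 luminal epithelium markers (left) and level of the Cdkn2b probe A_42_P528537 against that of 9 glucocorticoid target genes (right), 1 point per array. Both go up together over the 12 arrays (r = 0.87 and 0.84), with LP day 21 6a at the upper right of the left panel.

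The luminal markers were themselves higher in LP rats by a median of 0.77 on day 21 and 0.53 on day 28, with 0 of 7 at an unadjusted p below 0.05, and their mean was highest, 2.10, on LP day 21 6a. The median was 0.45 on day 21 without that array and 0.12 on day 28 without NP day 28 4f. The 7 basal epithelium markers were higher in LP rats as well, by a median of 0.75 on day 21 (6 of 7 above 0) and 0.83 on day 28 (5 of 7). Their values without single arrays are not reported here, and the members were not set beside them. The part of either list in the Plk2 difference was not tested. The Cdkn1a probe A_44_P914438 had r = 0.70 with the glucocorticoid target genes, a list that includes Tsc22d3 (permutation p = 0.0127, adjusted p = 0.137), whereas A_64_P123895 had r = 0.03 with them (permutation p = 0.932, adjusted p = 0.947). Cdkn1b had r = -0.75 with the proliferation markers (permutation p = 0.0176, adjusted p = 0.164), which was -0.30 without NP day 28 4f and LP day 21 4a and so rested on those arrays.

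Among 24 tested genes of the wider p53 pathway, 0 had an adjusted p below 0.05 in any of the 6 comparisons. LP against NP, 1 gene was higher and 1 lower at an unadjusted p below 0.05 on day 21, and 1 was higher on day 28. Of all tested probes, 4.36% passed that threshold on day 21 and 8.07% on day 28, in either direction. Whatever their p, 7 of the 24 genes were higher in LP rats on day 21 and 8 on day 28. Their median difference was -0.13 on day 21 and -0.08 on day 28, against 0.01 and -0.05 over all tested probes. These medians without single arrays are not reported here. The gene that was higher at that threshold on both days was Rprm, which encodes reprimo, a p53-dependent inhibitor of entry into mitosis. Rprm measured -6.66, -5.97 and -7.07 in the NP rats of day 21 and -5.36, -4.41 and -5.73 in the LP rats, and -6.17, -7.14 and -6.75 in the NP rats of day 28 and -5.61, -5.26 and -5.46 in the LP rats. The groups did not overlap on either day, and the differences were 1.40 (SE 0.38, adjusted p = 0.861), or 1.02 without LP day 21 6a, and 1.24 (SE 0.38, adjusted p = 0.581). Fas, a death receptor, was lower in LP rats on day 21 (-0.48, SE 0.19, adjusted p = 0.861), by -0.24 without LP day 21 6a.

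From day 21 to day 28 over both diets, 1 of these 24 genes was higher and 2 were lower at an unadjusted p below 0.05. The share of all tested probes, in either direction, was 19.2%. Tp53inp1, a stress-induced p53 cofactor, was higher by 0.45 (SE 0.10, adjusted p = 0.0646). Tnfrsf10b, a death receptor for TRAIL, was lower, with a difference of -0.81 (SE 0.20, adjusted p = 0.0731), and Ei24 was lower with a difference of -0.24 (adjusted p = 0.21). The median difference was 0.04, against 0.01 over all tested probes.

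Of 18 tested CDKs, cyclins and members of the Rb and E2F families, the machinery on which the inhibitors act, 0 were higher and 4 were lower on day 28 over both diets at an unadjusted p below 0.05, with 0 below 0.05 after adjustment. The share of all tested probes at that threshold, in either direction, was 19.2%, so that 4 of 18 is close to the background. Their median difference was -0.31, and -0.13 without NP day 28 4f. The 4 were Cdk4 (-0.36, adjusted p = 0.109), which binds D cyclins, E2f1 (-0.55, adjusted p = 0.185), Ccne2 (-0.60, adjusted p = 0.249) and Rbl1 (-0.33, adjusted p = 0.251). Without NP day 28 4f the last 3 were -0.34, -0.35 and -0.22. Of 11 proliferation markers, 0 were higher and 3 were lower (median -0.47), the replication genes Mcm6 (-0.65, adjusted p = 0.113), Mcm2 (-0.49, adjusted p = 0.145) and Mcm5 (-0.61, adjusted p = 0.227). Without NP day 28 4f their median was -0.23 and Mcm5 differed by -0.36. Mcm2, Mcm6 and Cdk4 were also lowest on that array, at -1.45, -2.43 and 0.57, so that their differences are smaller without it too. Between the diets these lists held 1 gene at an unadjusted p below 0.05, beside 4.36% of all tested probes on day 21 and 8.07% on day 28. It was Ccne1, the gene of cyclin E1, which was higher in LP rats on day 28 (0.91, SE 0.35, adjusted p = 0.581), by 0.45 without NP day 28 4f. In direction, 14 of the 18 genes were higher in LP rats on day 21 (median 0.17) and 12 on day 28 (median 0.19). Of the 11 proliferation markers, 10 were higher in LP rats on each day (medians 0.21 and 0.44). The medians of all tested probes were 0.01 and -0.05. These diet medians without single arrays are not reported here.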

How the data were processed

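Total RNA of 12 glands was hybridised to 1-colour Agilent rat arrays (1 rat each). The deposited scanner files hold the processed intensity of each spot, which the authors made with Agilent Feature Extraction 10.7.3.1 by subtracting background and correcting trends within the array. Probe positions are those of the array annotation on rn4. A second deposited table by the authors gives that signal as a ratio to a constant per array (largest relative deviation 6.56e-05), used as an alternative.

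From the intensities, 4259 control spots and 259 to 766 outlier spots per array were dropped. The rest were taken as log2 against the 75th percentile of the array and averaged over the spots of a probe. Probes above background on at least 3 arrays were fitted with limma 3.58.1 in R 4.3.3, as 4 group means with eBayes, and p values were adjusted by Benjamini-Hochberg over all 23209 probes. Gaps between probes and single probes by day were compared by exact two-sided permutation tests, and correlations with list means by permutation tests. Intervals and adjusted p are given for member probes with an unadjusted p below 0.05, a difference of at least 1, or separate groups at least 0.5 apart, and for the other probe of such a gene. Plk2 and Btg2 on day 21, and the 9-letter run, were added after their values were seen. From the other gene lists, up to 3 genes of lowest p were named, and 4 where 4 passed. Some genes of the lists and correlations are not reported here. The members and lists were chosen with earlier results of these data known. Figures were drawn with matplotlib 3.10.9. The limma fit was tested on simulated data with known shifts in the LP rats of day 28, and the other tests were not.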

Additional observations from a re-analysis of the deposited data

How the results depend on the processing

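The count of member probes with an adjusted p below 0.05 was 0 in all 6 comparisons under all 103 combinations of comparison and alternative that were run: normexp background correction, quantile normalization, the authors' processed table, both filters on dim probes, an intensity trend with robust variance, the array row as a covariate, the replicate number as a block over all rats or within diet, only the groups compared, and leaving out each array. Of 365 recomputed differences of single probes, 362 kept their sign. The difference of Cdkn1a A_64_P123895 between LP and NP on day 28 turned to 0.11 without NP day 28 5f (range without 1 array -0.30 to 0.11). That of Mdm2 A_43_P16885 between the days turned to 0.00465 with normexp and to 0.00279 without LP day 28 4f (range without 1 array -0.0784 to 0.00279). The difference of Cdkn1a A_44_P914438 on day 28 was 1.09 to 1.45 when 1 array was left out, and the gap between the Cdkn1a probes on that day was 1.21 to 1.50. On day 21 that gap was -0.50 to 0.04. Leaving out 1 array was extended to other values after seeing the data. The Cdkn1b difference on day 21 then ran from -0.44 (without LP day 21 7c) to 0.0182 (without LP day 21 6a). Of 78 member differences over the 6 comparisons, 66 moved by more than 1.5 times or turned when some array was left out, among them 3 of the 11 whose interval leaves out 0. Counts at an unadjusted p moved by more than 1.5 times in 27 of 103 cases, with 0 to 4 probes in each main count.

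Rats of the 2 days share replicate numbers, and the deviations of same-numbered rats of 1 diet had correlations of -0.06 to 0.38. Rats of different number were not compared, so that these values cannot tell whether a number marks a litter. The numbers were not taken as pairs in the main fit. With the replicate block the count of member probes called was 0 in every comparison, and the day 28 difference of Cdkn1a A_44_P914438 was 1.31 (adjusted p = 0.637). The 3 rats per group limit what could be called; probes not above background give no level.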
